A study of Mus musculus with 2 samples.

Results

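The genes described here are 43 nuclear genes whose enzymes turn pyruvate and fatty acids into electrons for the respiratory chain. They were chosen by name from textbook pathway membership, by a rule that uses no measured value although earlier results of these data were known, and all 43 had counts, out of 17859 annotated mouse genes with counts. They fall into 9 steps: the pyruvate dehydrogenase (PDH) complex, its kinases, the tricarboxylic acid (TCA) cycle, the partners of the malate-aspartate shuttle, fatty acid activation and carnitine entry, the beta-oxidation spiral, the enzymes for unsaturated chains, electron transfer to ubiquinone, and ketone body use. Gastrocnemius, the fast muscle of the calf, came from male B6CASTF1/J mice, an F1 hybrid of a C57BL/6 and a CAST/EiJ parent, at an age of 4 days. Its total RNA, 2 µg for each library, was read by long-read RNA sequencing, in which 1 read is meant to span 1 whole transcript. The series holds 1 group with 2 biological replicates and no treatment, so the only comparison is library against library. The labels give the replicates separate biosamples and a shared donor entry, which does not settle whether they are 2 mice. The p-values here hold counting error only and compare these 2 libraries, not conditions or animals. Reads of the 2 parental alleles were not separated here.

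The PDH complex makes acetyl-CoA from pyruvate, and PDH kinases switch it off when fat is the fuel. Fatty acids are activated on the outer mitochondrial membrane, carried inside as carnitine esters and shortened by repeated rounds of dehydrogenation, hydration, oxidation and thiolysis, which also gives acetyl-CoA. The TCA cycle oxidises the acetyl group to carbon dioxide and hands its electrons to the respiratory chain. Muscle of newborn mammals lives largely on milk fat and still grows its mitochondria.

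Replicate 1 held 998659 counts on annotated mouse genes and replicate 2 held 1026257, and levels are given as CPM, counts scaled to a total of 1000000 such counts. The 10 markers of the skeletal muscle fibre summed to 156181 (replicate 1) and 163544 (replicate 2), with 5 called higher in replicate 2, such as Acta1 (51040 and 65561), and 4 called lower, such as Atp2a1 (46378 and 26573). The 7 slow fibre markers held 2286 and 2877 counts. Of these, 4 were called higher in replicate 2, such as Tnnc1 (311 and 608), and 2 lower, such as Myh7 (901 and 769). Of 5 heart markers, Myl7, Nppa, Nppb and Tnni3 had 0 counts, and so did the liver markers Alb, Serpina1a and Ttr and the brown fat marker Ucp1. Markers of other tissues were not counted equally in the 2 libraries. The 6 epidermal keratinocyte markers held 4 and 940 counts, 6 adipocyte markers 199 and 520, 4 Schwann cell markers 1424 and 3543, and 5 fibroblast markers 36749 and 25416. Endothelial markers held 417 and 509 counts, leukocyte markers 107 and 135, and erythroid markers 211 and 347. Of the fibroblast markers Col1a1 and Col3a1 were called lower in replicate 2, Dcn was called higher (814 and 969), and Col1a2 (1716 and 1715) and Pdgfra (33 and 29) were not called. In bulk tissue, fewer cells of a type and less RNA per cell cannot be told apart. The part of these cell types in the results below was not tested.

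Structures of Idh3g and Got2 that lie outside the annotation are shown first, with an annotated exon of Acadvl and the annotated starts of Acsl1. They carry the bases that the later values refer to. Idh3g encodes the gamma subunit of the NAD-dependent isocitrate dehydrogenase, a regulatory subunit of this TCA cycle enzyme. The annotated full-length transcript Idh3g-201 has a microexon, exon 3, between exons 2 and 4. The leading structure left this microexon out and added bases to the end of exon 2. The sequences, on GRCm38 (mm10) and the minus strand, are as follows, with the added bases, the microexon and the start of exon 4 in capitals.
Idh3g exon 2 and the start of its intron, chrX:73782655-73782716: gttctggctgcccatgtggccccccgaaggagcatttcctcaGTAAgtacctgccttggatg
Idh3g annotated microexon with its flanks, chrX:73782278-73782329: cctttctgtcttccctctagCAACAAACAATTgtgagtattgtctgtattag
Idh3g end of the intron and start of exon 4, chrX:73782084-73782123: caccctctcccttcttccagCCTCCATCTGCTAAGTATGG

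Got2 encodes the mitochondrial aspartate aminotransferase, which pairs with the cytosolic enzyme Got1 in the malate-aspartate shuttle. In its second structure the last intron had the same length as annotated and lay 4 bases further downstream. The last bases of the exon before that intron and the first bases of the last exon, with the bases that the second structure moves out of the last exon in capitals, are these (minus strand).
Got2 end of the last but one exon, chr8:95866821-95866840: ccggcctaaagccagagcag
Got2 start of the last exon, chr8:95865232-95865251: GTAGagcggctgaccaagga

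Acadvl encodes the very long-chain acyl-CoA dehydrogenase, which takes the first step of the spiral on the inner mitochondrial membrane. Its exon 3 is the member exon with the most counts on both the included and the skipped form, and it is shown whole (minus strand).
Acadvl exon 3, chr11:70014793-70014858: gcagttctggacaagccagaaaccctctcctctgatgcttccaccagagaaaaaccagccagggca

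Acsl1 encodes the main long-chain acyl-CoA synthetase of muscle, which activates fatty acids. RefSeq (GRCm38.p6) gives this gene 2 start sites 19929 bases apart, and the 250 bases before each are shown on the plus strand. Any of the motifs searched (a TATA box, a CCAAT box or an estrogen-related receptor element, spelled out below) is in capitals, on whichever strand it lies.
Acsl1 upstream start, chr8:46470787-46471036: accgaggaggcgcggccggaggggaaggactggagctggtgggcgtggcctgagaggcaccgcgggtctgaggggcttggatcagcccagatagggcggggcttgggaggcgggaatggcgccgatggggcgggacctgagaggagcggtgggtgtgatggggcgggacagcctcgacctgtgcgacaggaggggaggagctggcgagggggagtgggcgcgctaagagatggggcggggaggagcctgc
Acsl1 downstream start, chr8:46490716-46490965: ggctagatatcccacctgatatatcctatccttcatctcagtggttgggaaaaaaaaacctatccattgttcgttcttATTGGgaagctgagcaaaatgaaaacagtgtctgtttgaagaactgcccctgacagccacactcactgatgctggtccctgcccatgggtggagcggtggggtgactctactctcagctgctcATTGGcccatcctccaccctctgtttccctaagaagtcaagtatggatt

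Together the enzyme genes held 13408 (replicate 1) and 13969 (replicate 2) of the annotated gene counts, or 1.34% (exact Clopper-Pearson 95% interval 1.32 to 1.37%) and 1.36% (1.34 to 1.38%), a mean of 1.35 ± 0.0131% (SD, n = 2). Intervals here cover counting error only. The TCA cycle, with 12 genes, took the most, 0.538 ± 0.00604% of all counts. The beta-oxidation spiral, with 8 genes, followed at 0.289 ± 0.000999%, and the PDH complex, with 5, at 0.175 ± 0.00295%. The other steps hold 2 to 4 genes each. The succinate dehydrogenase genes of the cycle are not among the 12 and are given below with the further genes. The PDH kinases held 0.0811 ± 0.00534%, electron transfer to ubiquinone 0.0740 ± 0.00961%, and the malate-aspartate partners 0.0682 ± 0.00418%. Activation and carnitine entry held 0.0606 ± 0.00110%, ketone body use 0.0454 ± 0.00429% and the unsaturated chain enzymes 0.0207 ± 0.00575%. The shares of the TCA cycle and of the spiral differed little between the libraries, while the unsaturated chain enzymes held 0.0166% in replicate 1 and 0.0248% in replicate 2.

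**Figure D1:**
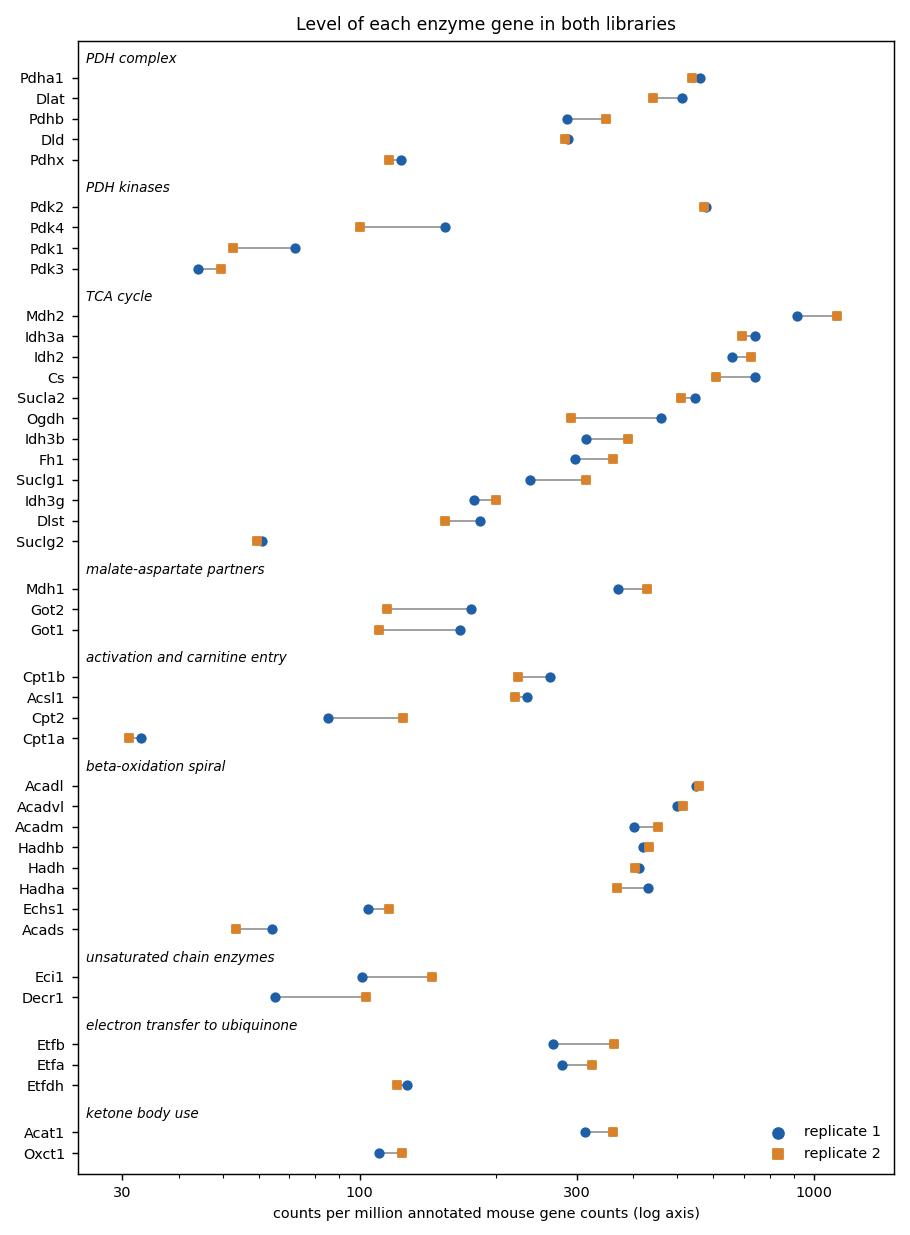
Level of each of the 43 enzyme genes in CPM (log axis), replicate 1 as blue circles and replicate 2 as orange squares, grouped by step and joined by a grey line. Mdh2 is highest, Cpt1a lowest, and Ogdh, Got1, Got2, Pdk4 and Decr1 show wide gaps between the libraries.

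Mdh2, the mitochondrial malate dehydrogenase that closes the TCA cycle, was the highest of the enzyme genes with 1018 ± 144 CPM (n = 2), rank 70 among all genes. Idh3a, the catalytic subunit of the NAD-dependent isocitrate dehydrogenase, followed with 717 ± 32.7 CPM. Idh2, the NADP-dependent isocitrate dehydrogenase of mitochondria, had 693 ± 46.7 CPM and Cs, the citrate synthase that opens the cycle, 674 ± 94.7 CPM. Idh3a, Idh2 and Cs did not differ from one another beyond the sum of their SDs. Cpt1a, the liver-type carnitine palmitoyltransferase, was lowest at 32.1 ± 1.32 CPM, and the median of the 43 genes was 301 CPM. In the order of levels, 6 of the 42 neighbouring pairs were separated by more than the sum of their SDs. Since 1 read stands for 1 transcript, CPM was not divided by length. Per kilobase of the leading structure, Mdh2 was again first, at 699 ± 99.2 CPM per kilobase, and Cpt1a last, at 7.44 ± 0.305. Between these ends the order changed: Etfb went from place 21 to 3 and Idh3b from 17 to 4, while Dlat went from 10 to 21 and Ogdh from 16 to 26. The length used for Idh3b, 1216 bases, is of an unannotated model, and those for Etfb, Dlat and Ogdh are of annotated transcripts. The annotated Idh3b-201 has 1616 bases. The most counted unannotated Dlat model with as many exons had 2893 bases, where 4035 was used. Such a model had 4373 bases for Ogdh, where 4127 was used, and 901 for Etfb, where 893 was used. The part of this in the order was not tested.

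Of the 43 genes, all were tested between the libraries and 9 passed Fisher's exact test at an adjusted p under 0.05 (Benjamini-Hochberg over 11027 genes). That is 20.9% of them, against 9.74% of all genes tested. Among the 4925 genes within the members' range of 65 to 2065 summed counts, 838 were called (17.02%). In replicate 2, 4 members were higher (5.25% of all genes tested were), namely Mdh2, Suclg1, Etfb and Decr1, and 5 were lower (4.49% of all genes tested were), namely Cs, Ogdh, Got1, Got2 and Pdk4. The median log2 ratio of the members, replicate 2 over replicate 1, was −0.02, beside −0.04 over all genes tested. The test holds counting error only. With a biological coefficient of variation of 0.1 or 0.2 set in edgeR's exact test, 0 of the 43 passed, with 5 and 0 at an unadjusted p under 0.05, and the value measured over all genes from these libraries was 0.211.

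**Figure D2:**
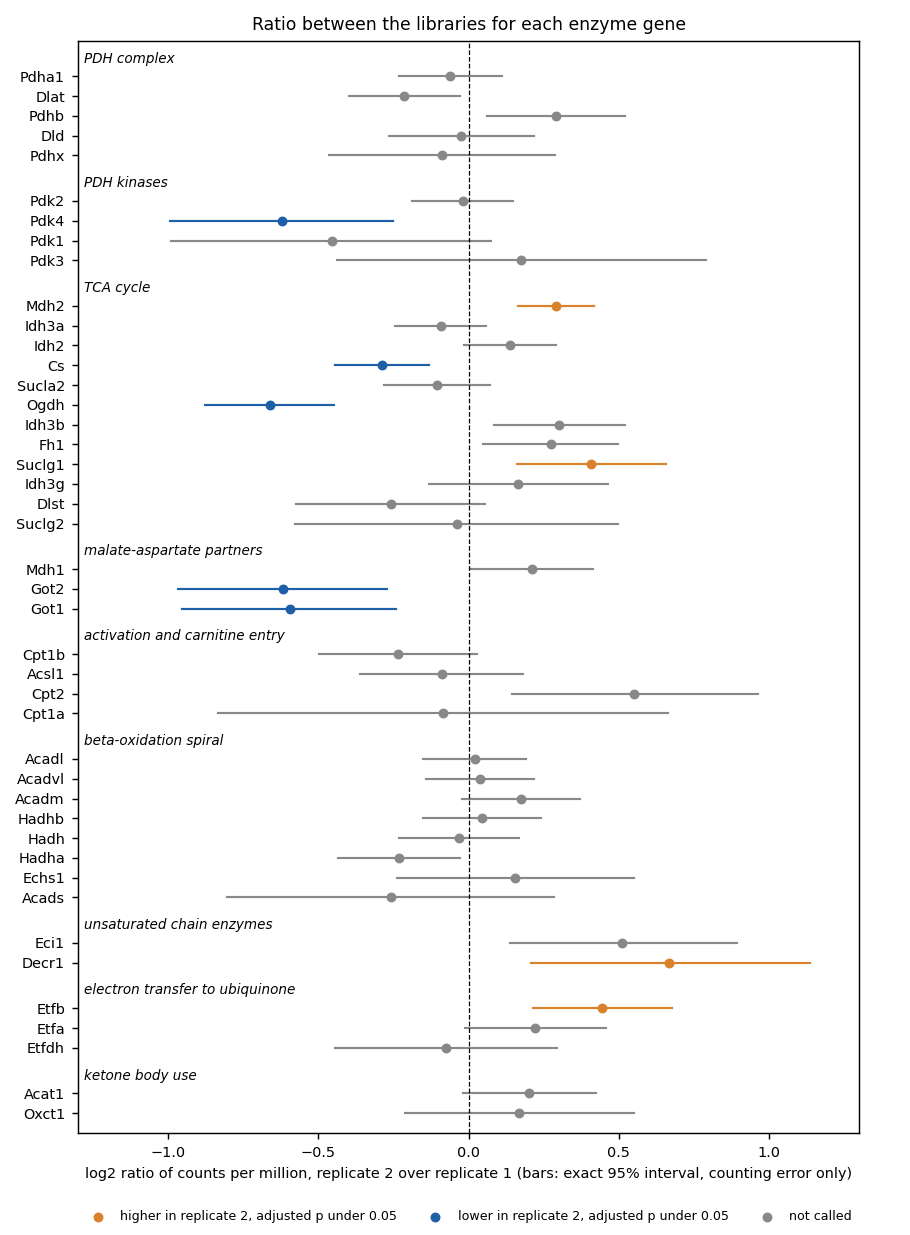
Log2 ratio of CPM, replicate 2 over replicate 1, for the 43 enzyme genes by step, with exact 95% intervals (counting error only). Orange marks the 4 genes called higher in replicate 2, blue the 5 called lower, grey the 34 not called.

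In the PDH complex, none of the 5 genes passed the test. Pdha1, the catalytic E1 alpha subunit, led with 561 and 553 counts in replicates 1 and 2 (log2 ratio −0.06, 95% interval −0.23 to 0.11, exact test, adjusted p = 0.785). Pdhb, its E1 beta partner, had 285 and 358 counts. Dlat, the E2 core acetyltransferase, had 511 and 453, and Dld, the E3 dehydrogenase that the oxoacid dehydrogenase complexes share, had 287 and 290. Pdhx, the protein that binds E3 to the core, was lowest with 123 and 119 counts (log2 ratio −0.09, −0.46 to 0.29, exact test, adjusted p = 0.885). The ratio of Pdha1 to Pdhb, which join in equal number in the E1 tetramer, was 1.97 in replicate 1 and 1.54 in replicate 2 by counts. Per kilobase of the leading structure Pdha1 held 48.1 ± 4.27% of the pair (n = 2), and per kilobase of the longest annotated transcript detected 59.2%. On the former length the order turned with the library: Pdha1 had 197 CPM per kilobase and Pdhb 189 in replicate 1, against 189 and 231 in replicate 2.

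Among the PDH kinases, Pdk2, the most widely expressed form, held 71.0 ± 3.99% of the counts of the 4 kinase genes (68.2% and 73.8% in replicates 1 and 2), with 578 and 586 counts (log2 ratio −0.02, −0.19 to 0.15, exact test, adjusted p = 0.974). Pdk4, the kinase induced by fasting and fat supply, had 154 and 103 counts and passed the test in the lower direction, with a log2 ratio of −0.62 (−0.99 to −0.25, exact test, adjusted p = 0.0120). Its share of the kinase counts was 18.2% (95% interval 15.6 to 20.9%) and 13.0% (10.7 to 15.5%). Pdk1, a kinase known as a hypoxia target, had 72 and 54 counts. Pdk3 was lowest with 44 and 51 (log2 ratio 0.17, −0.44 to 0.79, exact test, adjusted p = 0.855). Pdk2 thus outnumbered the other 3 kinases together in each library, and it also held 78.4 ± 2.65% of the kinase level per kilobase.

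In the TCA cycle, 2 of the 12 genes were called higher and 2 lower in replicate 2. Mdh2 had 915 and 1150 counts, a log2 ratio of 0.29 (0.16 to 0.42, exact test, adjusted p = 2.07e-04). Suclg1, the alpha subunit that all succinyl-CoA synthetases share, had 237 and 323 counts, a log2 ratio of 0.41 (0.16 to 0.66, exact test, adjusted p = 0.0148). Both genes were higher in replicate 2, whereas the citrate synthase gene and the gene of the oxoglutarate dehydrogenase E1 subunit were lower there. Cs had 740 and 623 counts, a log2 ratio of −0.29 (−0.44 to −0.13, exact test, adjusted p = 5.12e-03). Ogdh, that E1 subunit, had 460 and 299 counts, a log2 ratio of −0.66 (−0.88 to −0.45, exact test, adjusted p = 3.66e-08), the smallest adjusted p of the 43 genes. Ogdh also had the largest share of partial reads (ISM, an incomplete part of an annotated intron chain), 26.3% of its counts in replicate 1 and 37.8% in replicate 2, and the part of this in its ratio was not tested. Among full structures its leading transcript Ogdh-201 held 73.7% and 75.1% of the counts.

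The other TCA cycle genes were not called. Idh3a had 739 and 712 counts, Idh2 659 and 745, and Sucla2, the ATP-forming beta subunit of succinyl-CoA synthetase, 546 and 522. Idh3b and Idh3g, the beta and gamma subunits of isocitrate dehydrogenase, had 315 and 399 and 178 and 205 counts. Fh1, the fumarase, had 298 and 370, and Dlst, the E2 subunit of the oxoglutarate dehydrogenase complex, 184 and 158. Suclg2, the GTP-forming beta subunit, was lowest with 61 counts in each library (log2 ratio −0.04, −0.58 to 0.50, exact test, adjusted p = 1). Of the counts of the 2 beta subunits, Sucla2 held 89.95% in replicate 1 and 89.54% in replicate 2, a mean of 89.7 ± 0.293%, and per kilobase 93.0 ± 0.208%.

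The subunits of the NAD-dependent isocitrate dehydrogenase were counted unequally. Idh3a held 57.0 ± 4.16% of their summed counts (60.0% and 54.1%), Idh3b 27.9 ± 3.36% and Idh3g 15.0 ± 0.799%. In the known enzyme the alpha subunits equal the beta and gamma subunits in sum. Per kilobase of the leading structure the shares were 39.2 ± 4.08% for Idh3a, 40.7 ± 3.63% for Idh3b and 20.1 ± 0.445% for Idh3g. On that scale the libraries were split: Idh3a stood at 287 CPM per kilobase and Idh3b at 259 in replicate 1, against 269 and 320 in replicate 2. These lengths are not alike. That of Idh3a, 2580 bases, is of an annotated transcript, and those of Idh3b and Idh3g, 1216 and 1323 bases, are of unannotated models. Unannotated Idh3a models with as many exons as the annotated one had 1684 and 1706 bases. The part of this in the shares per kilobase was not tested.

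Of the malate-aspartate partners, both aminotransferases were called lower in replicate 2. Got2 had 176 and 118 counts, a log2 ratio of −0.62 (−0.97 to −0.27, exact test, adjusted p = 6.83e-03). Got1, the cytosolic form, had 166 and 113 counts, a log2 ratio of −0.59 (−0.95 to −0.24, exact test, adjusted p = 0.0125). Got2 had 51.5% of the counts of the pair in replicate 1 and 51.1% in replicate 2, and 45.0% where partial and genomic reads were left out. Mdh1, the cytosolic malate dehydrogenase, was not called, with 369 and 439 counts (log2 ratio 0.21, 0.01 to 0.41, exact test, adjusted p = 0.212). Mdh2 held 71.8 ± 0.786% of the malate dehydrogenase counts and 78.8 ± 0.649% of the level per kilobase. A processed pseudogene of Got2, Got2-ps1, matched 51.1% of its transcript at 99.1% identity and held 8 and 0 counts, and adding these to Got2 kept it called.

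**Figure D3:**
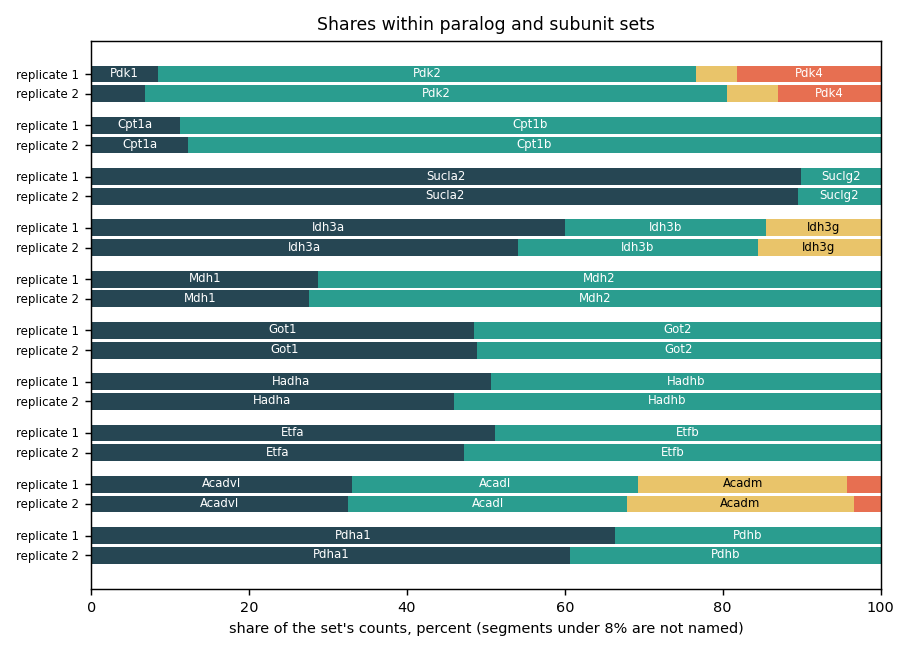
Share of each gene in the summed counts of its paralog or subunit set, in percent, 1 bar per library and set; segments under 8% carry no name. Pdk2, Cpt1b, Sucla2 and Mdh2 hold most of their sets in both libraries, while the Got1 and Got2, Hadha and Hadhb, and Etfa and Etfb pairs divide nearly evenly.

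None of the 4 genes of fatty acid activation and carnitine entry passed the test. Cpt1b, the muscle-type carnitine palmitoyltransferase of the outer membrane, had 262 and 229 counts (log2 ratio −0.23, −0.50 to 0.03, exact test, adjusted p = 0.309), and Cpt1a had 33 and 32 (log2 ratio −0.08, −0.83 to 0.66, exact test, adjusted p = 1). Cpt1b thus held 88.8% (95% interval 84.6 to 92.2%) of the pair in replicate 1 and 87.7% (83.1 to 91.5%) in replicate 2, and 91.8 ± 0.551% per kilobase. Acsl1 had 233 and 225 counts. Cpt2, the inner membrane enzyme that returns the acyl group to coenzyme A, had 85 and 128 counts, the widest ratio of the step at log2 0.55, and missed the threshold (exact test, adjusted p = 0.0584).

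In the beta-oxidation spiral none of the 8 genes was called. Acadl, the long-chain acyl-CoA dehydrogenase, had 549 and 572 counts (log2 ratio 0.02, −0.15 to 0.19, exact test, adjusted p = 0.973). Acadvl had 499 and 527, Acadm, the medium-chain enzyme, 400 and 464, and Acads, the short-chain enzyme, 64 and 55 (log2 ratio −0.26, −0.80 to 0.28, exact test, adjusted p = 0.684). Of the counts of these 4 dehydrogenases, Acadl took 35.8 ± 0.677%, Acadvl 32.8 ± 0.305%, Acadm 27.6 ± 1.57% and Acads 3.82 ± 0.589%. The order was the same in each library and per kilobase. Among full structures alone (Known, NIC and NNC), Acadvl stood above Acadl, with 476 and 505 counts against 464 and 480. Echs1, the short-chain enoyl-CoA hydratase, had 104 and 119 counts, and Hadh, the hydroxyacyl-CoA dehydrogenase for shorter chains, 411 and 413.

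Hadha and Hadhb, the alpha and beta subunits of the trifunctional protein that carries long chains through the rest of the spiral, had 431 and 377 and 419 and 444 counts. Their ratio was 1.03 in replicate 1 and 0.849 in replicate 2, and the subunits join in equal number in the known enzyme. Per kilobase Hadhb held 67.9 ± 2.96% of the pair, with 4017 bases for the leading annotated Hadha transcript and 2033 for that of Hadhb. The most counted unannotated model with as many exons had 2713 bases for Hadha and 2138 for Hadhb. The part of this in the share per kilobase was not tested. A pseudogene near-identical to Hadhb, Gm13910 (99.8% identity over 70.2% of the transcript), held 7 and 4 counts.

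Decr1 and Eci1 let the spiral pass double bonds. Decr1, the dienoyl-CoA reductase, had 65 and 106 counts and was called higher, with a log2 ratio of 0.67 (0.21 to 1.13, exact test, adjusted p = 0.0393). Eci1, the enoyl-CoA isomerase, had 101 and 148 counts, a log2 ratio of 0.51 (0.14 to 0.89, exact test, adjusted p = 0.0602), and missed the threshold. Decr1 missed the threshold, at log2 ratios of 0.63 to 0.67 and adjusted p of 0.0615 to 0.0746 (Fisher's exact test), when only annotated transcripts or only full structures were counted, or when all genes with at least 1 count were tested. Eci1 passed it with at least 50 counts, with full structures only, and under TMM or DESeq2's size factors.

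Of the genes that pass electrons from the acyl-CoA dehydrogenases to ubiquinone, 1 of 3 was called. Etfb, the beta subunit of the electron transfer flavoprotein, had 266 and 372 counts, a log2 ratio of 0.44 (0.21 to 0.68, exact test, adjusted p = 2.78e-03). Etfa, its alpha subunit, had 278 and 333, and Etfa held 51.1% and 47.2% of the counts of the pair. Etfdh, the membrane enzyme that takes the electrons on to ubiquinone, was lower than both, per kilobase as well, with 127 and 124 counts (log2 ratio −0.07, −0.44 to 0.29, exact test, adjusted p = 0.917). For ketone body use, Acat1, the mitochondrial acetoacetyl-CoA thiolase, had 313 and 370 counts (log2 ratio 0.20, −0.02 to 0.42, exact test, adjusted p = 0.295). Oxct1, the transferase that commits ketone bodies to oxidation, had 110 and 127 counts (log2 ratio 0.17, −0.21 to 0.55, exact test, adjusted p = 0.715).

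The called genes lay apart in the genome (GENCODE M21, mm10): Mdh2 at chr5:135778480-135790398, Suclg1 at chr6:73248382-73276911, Etfb at chr7:43444083-43457800, Decr1 at chr4:15917240-15945507, Cs at chr10:128337734-128362479, Ogdh at chr11:6291633-6356642, Got1 at chr19:43499752-43524605, Got2 at chr8:95864134-95888547 and Pdk4 at chr6:5483351-5496309.

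Transcript length moved with these ratios. Across the 43 genes, the log2 ratio fell with the length of the leading structure (Spearman's rho −0.57, Pearson's r −0.55 on log2 length, over genes that share the same 2 libraries). Over the 4982 genes with at least 65 summed counts, rho was −0.55. Of the 13 members under 2000 bases, 11 had a ratio above 1 and their median log2 ratio was 0.22. Of the 30 members from 2000 bases, 10 did and the median was −0.08. The same split over all genes gave 0.30 for 1653 shorter and −0.17 for 3329 longer genes. The members called higher had leading structures of 893 to 2959 bases with a median of 1488, and those called lower 2058 to 4127 with a median of 2926. Decr1, at 2959 bases, was the exception among the called members. The part of transcript length in the called differences was not tested.

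**Figure D4:**
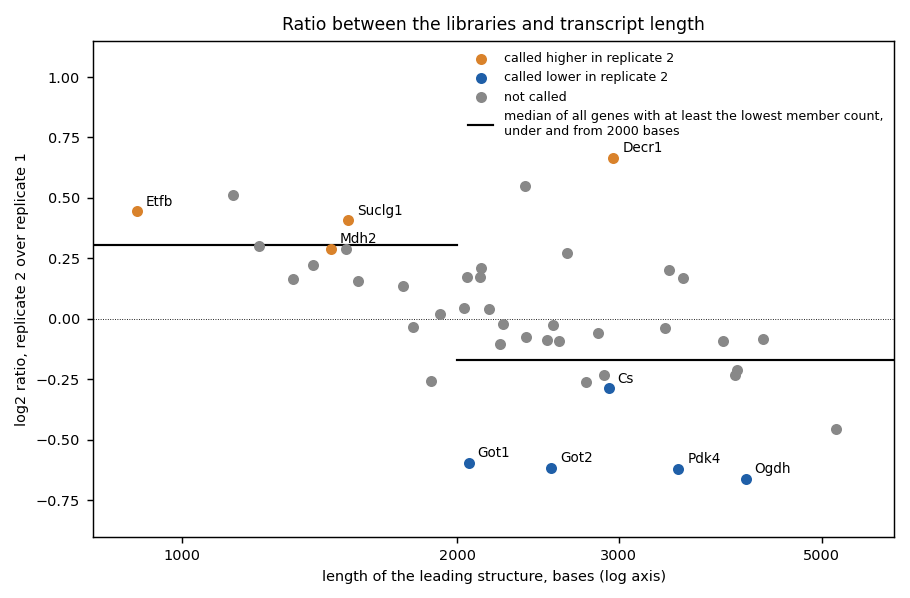
Log2 ratio of replicate 2 over replicate 1 against the length of the leading structure in bases (log axis) for the 43 enzyme genes, with the 9 called genes named. Black lines give the median over all genes with at least the lowest member count, 0.30 under 2000 bases and −0.17 from 2000 bases.

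Most reads of these genes matched an annotated intron chain in full. Known transcripts held 85.7 ± 0.791% of the members' counts, against 74.0% over all annotated genes. Partial reads (ISM) made up 6.15% against 9.53%, new combinations of annotated splice sites (NIC) 4.05% against 6.91%, structures with a splice site outside the annotation (NNC) 3.34% against 6.49%, and genomic reads 0.734% against 3.08%. Partial reads passed 20% of the counts in Ogdh, Dlst and Cpt1a, with means of 32.0%, 28.1% and 23.1%, and unannotated spliced reads did so in Got2, Idh3b and Idh3g, with 33.3%, 83.5% and 96.9%. In Idh3g, Known transcripts held 0 counts in replicate 1 and 2 in replicate 2.

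The leading structure, the intron chain with the most counts, was the same in each library for 43 of 43 members. Its share of the Known, NIC and NNC counts differed between the libraries in 0 of 43 members (Fisher's exact test, smallest adjusted p = 0.751, with 3 at an unadjusted p under 0.05), against 0.449% of the 5351 genes tested. The median leading share was 95.2% in the members and 86.4% over all genes tested, and 30 members had at least 90% on it in both libraries. In Mdh2, Suclg1, Etfb, Cs, Pdk4, Got1 and Decr1, the called genes with plain structures, the annotated first transcript held between 93.4% and 100% in each library. The leading structure was unannotated in 2 members (4.65%), Idh3b and Idh3g, and in 261 of the genes tested (4.88%).

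In Idh3g the leading structure had 142 of 174 and 157 of 199 counts in replicates 1 and 2. No model in either library held the annotated microexon of 12 bases, at chrX:73782298-73782309, and a count of 0 allows up to 3 counts in each library. Over all classes, 149 and 162 counts had the intron that starts 4 bases downstream, after the GTAA shown above, and 25 and 30 joined the annotated end of exon 2 to exon 4. The shifted donor thus took 85.6% and 84.4%, a mean of 85.0 ± 0.889% (n = 2). The intron begins with GTAC at the shifted donor and with GTAA at the annotated one. Read from the annotated start codon, Idh3g-201 has 393 codons. Leaving out the microexon gives 389, whereas the leading structure meets a stop after 46 codons, before the last exon. The tables give exon coordinates and no read bases, so whether the reads held the 12 bases of the microexon was not tested.

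In Idh3b the leading structure had 252 of 293 and 315 of 367 counts, and the annotated transcript Idh3b-201 had 27 and 38. It joined the last donor of Idh3b-201 to the last acceptor of Idh3b-204, an intron of 825 bases at chr2:130279438-130280262 where Idh3b-201 has one of 536 bases. The last exon lost its first 289 bases. This intron took 89.4% of the counts in replicate 1 and 87.4% in replicate 2, a mean of 88.4 ± 1.40%. From the annotated start the leading structure has 380 codons and Idh3b-201 has 384, so the proteins differ at the carboxyl end and not in the bulk of the chain. The last 30 coding bases of each, with the stop in capitals, are these.
Idh3b leading structure: actgaagctgtcattactgccctgtcaTAA
Idh3b annotated structure: atcggccacctgcacccccatgggggcTAG

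In Got2 the annotated transcript led with 78 of 131 full counts (replicate 1) and 47 of 90 (replicate 2), and the structure with the moved last intron had 52 and 38. Counting all classes, the moved intron took 33.5% and 38.8%, a mean of 36.2 ± 3.74%. It takes 4 bases, GTAG, out of the last exon and adds as many bases of the annotated intron to the exon before, so the splice itself leaves the length and the frame the same. With splice sites matched within 5 bases the number of members with a leading share of at least 90% in both libraries went from 30 to 34. The bases of the Got2 intron were not used here, and whether the 2 placements give the same RNA was not tested.

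**Figure D5:**
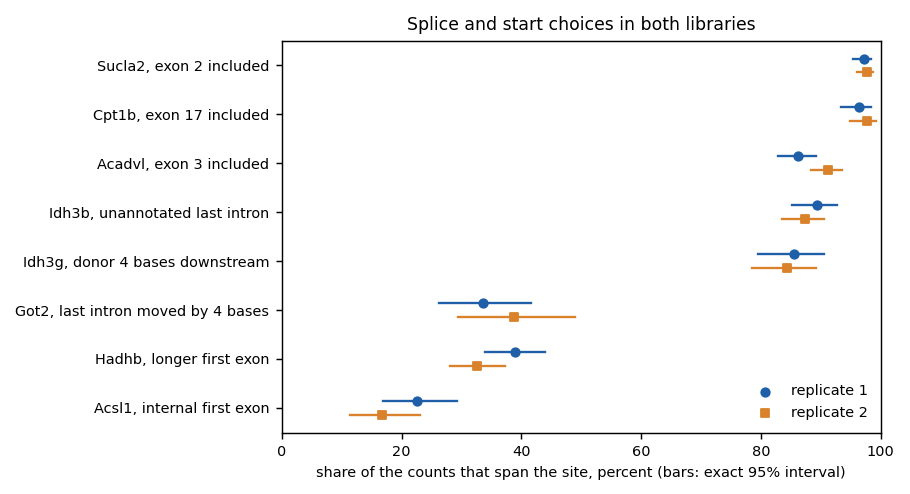
Share of the counts spanning each site that used the named exon, intron or first exon, in percent with exact 95% intervals (counting error only), replicate 1 as blue circles and replicate 2 as orange squares. The intervals of the 2 libraries overlap for all 8 choices.

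Acadvl exon 3, 66 bases, was included in 409 of 474 counts (replicate 1, 86.3%, 82.9 to 89.3%) and 460 of 504 counts (replicate 2, 91.3%, 88.5 to 93.6%), a mean of 88.8 ± 3.52%. Its difference was not called (Fisher's exact test, adjusted p = 0.422). Skipping it shortens the reading frame from 656 to 634 codons and keeps the frame. The form without it is annotated as Acadvl-201, which had 62 and 42 counts. The only other member exon within 5 to 95% in both libraries was an exon of 55 bases in Acads, included in 3 of 60 and 4 of 53 counts. Neither was called (0.502% of the 1991 exons tested were). Rarer skips were counted in both libraries: Sucla2 exon 2, 181 bases, was left out in 15 and 12 counts, where the frame ends after 35 codons against 463, and Cpt1b exon 17, 114 bases, in 9 and 5 counts, where 734 of 772 codons remain.

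First exons varied in Acsl1, Hadhb and Ogdh. In Acsl1 the first intron from the upstream start had 147 and 145 counts and that from the downstream start 43 and 29, so the downstream start had 22.6% and 16.7% of the counts of these 2 introns, a mean of 19.6 ± 4.22%. Another Acsl1 first intron, which begins at chr8:46472050, had 13 and 9 counts and is left out of these shares. The base makeup of the starts differed: the 250 bases before the upstream start held 20 CpG and 72.0% G and C, those before the downstream start 2 CpG and 48.4%, with CCAAT on the opposite strand at 2 places. In Hadhb, Hadhb-201 had 231 and 280 counts and Hadhb-203, whose first exon runs further downstream, 149 and 134. The longer first exon thus took 38.9% and 32.5% of the counts of both first introns. In Ogdh, 4 first exons joined the same second exon, with 282 and 159, 16 and 11, 20 and 9, and 10 and 2 counts, so the main first exon held most of the Ogdh counts in each library.

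Promoter letters were compared for the 39 members matched by symbol in the RefSeq table, over 47 promoters of 250 bases, with both strands searched. The TATA box TATAAA was in 1 of 47 (2.13%), against 12.4% of all 32851 promoters. CCAAT was in 22 (46.8% against 33.8%), and the nuclear receptor half-site AGGTCA in 8 (17.02% against 14.0%). Some genes have several promoters, and those of Ogdh overlap in part. Counted by gene, CCAAT was in 19 of 39 members (48.7%, against 37.5% of the other genes) and AGGTCA in 8 (20.5% against 15.8%). TCAAGGTCA, the element of estrogen-related receptors, which are known regulators of these pathways and which contains the half-site, was in 0 of 47 and in 0.387% of all promoters. The median number of CpG was 15 in the member promoters and 6 in all promoters. The set of all promoters was not limited to genes with counts in these libraries, whereas all members had counts. Whether the members differ from other expressed genes in these letters was not tested.

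Of 69 further genes of these pathways, all had counts and 62 were tested. Of the genes tested 15 were called (24.2%), 11 higher and 4 lower in replicate 2, with a median log2 ratio of 0.13. Over all genes of the libraries that were tested, 9.74% were called, 5.25% higher and 4.49% lower, and the median was −0.04. Slc25a12, the aspartate-glutamate carrier of the malate-aspartate shuttle, had 325 and 232 counts (log2 ratio −0.53, exact test, adjusted p = 6.53e-04), the direction of Got1 and Got2, while Slc25a11, the other carrier of the shuttle, was not called with 348 and 386 (log2 ratio 0.11, exact test, adjusted p = 0.648). Sdha, the flavoprotein of succinate dehydrogenase, had 1049 and 818 counts (log2 ratio −0.40). Its partner subunits went the other way: Sdhb (363 and 531, log2 ratio 0.51) and Sdhc (90 and 137, 0.57) were called higher, and Sdhd (362 and 453, 0.28) was not called. Crat, the carnitine acetyltransferase, had 564 and 483 counts (log2 ratio −0.26). Higher in replicate 2 were Mcee (35 and 83 counts, log2 ratio 1.21), the methylmalonyl-CoA epimerase, Lias (54 and 124, 1.16), the lipoic acid synthase, Idh1 (55 and 114, 1.01), the cytosolic isocitrate dehydrogenase, and Hsd17b10 (63 and 123, 0.93), a hydroxyacyl-CoA dehydrogenase. Acsbg1, an acyl-CoA synthetase, had 1 and 13 counts, a log2 ratio of 3.66 with a counting interval of 0.93 to 9.07. The longest annotated transcript detected had 6351 bases for Slc25a12, 1711 for Slc25a11, 2900 for Sdha and 3833 for Crat. It had 1142 bases for Sdhb, 3171 for Sdhc and 1231 for Sdhd. For Mcee it had 828 bases, for Hsd17b10 1001, for Idh1 2302, for Acsbg1 2880 and for Lias 2996. The part of transcript length in these differences was not tested.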

How the data were processed

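Long-read RNA sequencing of 2 gastrocnemius libraries was analysed from the deposited tables of raw read counts per transcript model, in TALON format per the file headers, with exon coordinates on mm10 and annotated models from GENCODE M21 per the readme beside the files. Which platform, aligner and software versions the authors used is not given in the sources used here. Counts were summed per gene over the classes Known, ISM, NIC, NNC and genomic. Antisense and intergenic loci and spike-ins (6.35% and 6.73% of 1066347 and 1100253 counts in replicates 1 and 2) stayed out of the library sizes. Models were matched between libraries by intron chain.

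Genes with at least 10 summed counts were compared with Fisher's exact test, two-sided, with Benjamini-Hochberg adjustment over all genes, in scipy 1.17.1, after a check on simulated counts. Leading structures and exons used the same test with at least 20 counts in each library, and exons needed 5 to 95% inclusion in both. Shares have exact Clopper-Pearson 95% intervals. Alternatives used TMM and a preset variation in edgeR 4.0.16, the size factors of DESeq2 1.42.0, other minimums of counts and other classes. Per-kilobase shares over the leading structure, near-identical pseudogenes (BLAST+ 2.17.0, at least 90% identity over at least 50% of the transcript) and classes taken from either library were added after seeing the data. The members and all lists were chosen with earlier results of these data known. Every member is named with its counts, and ratios are given for called members and for the highest and lowest of each step. Structures are described for called members and for those with an unannotated leading structure. Acadvl, Sucla2, Cpt1b, Hadhb, Acsl1, Cpt2, Slc25a11, Sdhb, Sdhc, Sdhd and the Acads exon were chosen for description after their values were seen. A gene that the rule names among the further pathway genes is not reported here.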

Additional observations from a re-analysis of the deposited data

How the results depend on the processing

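The count of 9 called members stood between 8 and 13 under other scalings, count minimums, classes and with pseudogene counts added: TMM gave 11, DESeq2's size factors 13, at least 50 counts 12, Known, NIC and NNC only 9, and Known only or at least 1 count 8. Calls gained were Eci1 and Idh3b under TMM, these with Cpt2 at 50 counts, these 3 with Pdhb under DESeq2's size factors, and Eci1 with Known, NIC and NNC only, where Decr1 was lost, as it was with Known only and at 1 count. A log2 ratio of at least 0.5 left 5 (Decr1, Got1, Got2, Ogdh and Pdk4). edgeR's exact test with a preset variation of 0.1 or 0.2 left 0. The share of the members in all counts was 1.44% over Known, NIC and NNC only, 1.57% over Known only and 1.26% with all counts in the tables as the denominator. Within the sets, Known, NIC and NNC only gave Cpt1b 91.0%, Sucla2 90.6%, Got2 45.0% (below Got1) and Acadl 33.5%. Per length of the longest annotated transcript detected, and per length of the leading structure where that differs, the leading gene's share was 78.4% for Pdk2, 91.8% for Cpt1b, 93.0% for Sucla2, 38.9% and 39.2% for Idh3a, 78.8% for Mdh2, 46.1% for Got2, 67.7% and 67.9% for Hadhb, 61.7% for Etfb, 37.9% for Acadl, and 59.2% and 48.1% for Pdha1. The causes of these shifts beyond the change of counts and lengths were not tested. Uncalled ratios near 0 changed sign: with Known, NIC and NNC only Pdk2 was at 0.017 and Etfdh at 0.0065, with Known only Acadl at −0.052, and with DESeq2's size factors Pdk2 at 0.020, Hadh at 0.0070 and Dld at 0.015. TMM and DESeq2 moved all log2 ratios by 0.02 and 0.04. Counts of called structures, called exons and called pathway genes stayed within their margins. Shares in each library alone cannot be judged this way, since either of 2 values always lies within their SD of the mean. Depth limits the low genes: the interval of Cpt1a, at 65 summed counts, was −0.83 to 0.66, and that of Mdh2, at 2065, was 0.16 to 0.42.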
